A study of Mus musculus with 35 samples.

Results

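The 10 cells with the most and the 10 cells with the least Cdkn1a RNA were compared among 35 single mouse embryonic fibroblasts that had all been irradiated. The fibroblasts came from C57Bl/6J embryos, grew at 3% oxygen, received 1 Gy of ionising radiation and were collected 48 h later, after a move onto membrane dishes at 32 h. PicoGreen, a DNA dye, showed the nuclei, single cells were excised by laser, and libraries were made by Smart-seq2, which covers whole poly-A transcripts and has no molecular identifiers. In 21 of the cells the labels record micronuclei, which are small DNA-containing bodies set apart from the nucleus, and in 14 none, and all cells share the strain, the dose and the time. The labels name no culture, embryo or animal, and no cell without irradiation was analysed here. Each cell is 1 library, so each side counts as 1 sample: differences are described by the spread over cells, and no p-value is given. Cells are numbered in accession order within each label.

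Cdkn1a encodes p21, an inhibitor of cyclin-dependent kinases. The transcription factor p53, stabilised after DNA breaks, binds the gene and raises its transcription, and p21 then holds cells in G1 and, through the pocket proteins and the DREAM complex, keeps many S phase and mitotic genes off. Individual cells given the same dose are known to differ in p53 activity and in p21, and fibroblasts with lasting p21 can stay arrested or become senescent.

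The cells were ranked by the CPM of Cdkn1a, that is its reads scaled to a common total of reads on genes, with the ERCC spike-in RNAs left out. On the high side Cdkn1a stood at 1707 to 4517 CPM (median 2317), and on the low side at 174 to 1008 CPM (median 769). The last cell inside the high side had 1707 CPM and the first one outside it 1688 CPM. On the other side the last cell inside had 1008 CPM and the first outside 1029 CPM. The levels on either side of both limits were thus close, and the sides are the ends of a ranking by 1 gene. Cdkn1a lies at chr17:29090976-29100727 on the plus strand of GRCm38, where 273 of its exonic bases also belong to a gene on the opposite strand, and since the cells were chosen by it, its own level is no result.

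**Figure D1:**
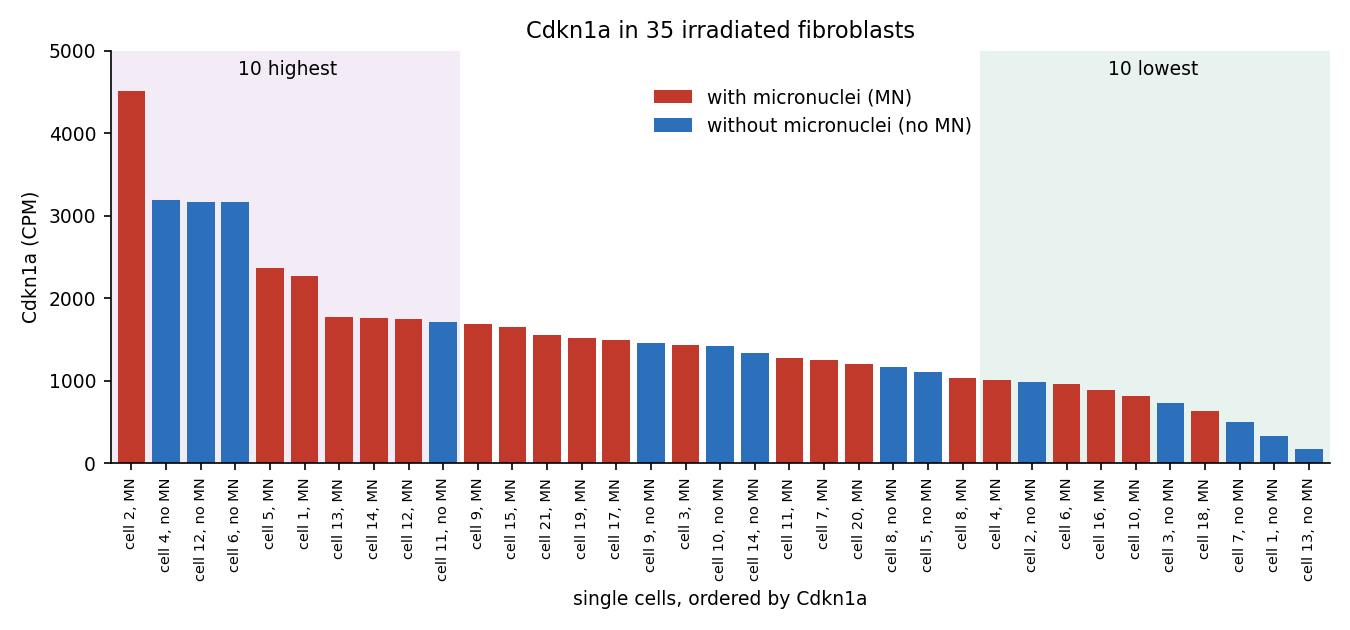
Cdkn1a level in CPM (vertical axis) of each of the 35 cells (horizontal axis), ordered from highest to lowest, with bars coloured by the micronuclei label. Shading marks the 10 highest cells, from 1707 to 4517 CPM, and the 10 lowest, from 174 to 1008 CPM, and both labels occur on both sides.

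Cells with and without micronuclei occurred at both ends. On the high side 6 cells had micronuclei and 4 had none, which is 60.0% (95% Clopper-Pearson interval 26.2% to 87.8%). On the low side the split was 5 and 5, or 50.0% (18.7% to 81.3%). Among the 15 cells between, 10 had micronuclei (66.7%, 38.4% to 88.2%), and the intervals, which cover counting error only, are wide at these numbers and overlap throughout. The highest cell of all was micronucleated cell 2 at 4517 CPM, and the 3 next in rank, at 3161 to 3187 CPM, had no micronuclei. At the other end the lowest 3 cells also had none.

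The libraries of the 2 ends differed in several ways. Reads on genes numbered 119337 to 1794113 per cell on the high side and 56766 to 2023111 on the low side, and genes with a read 5646 to 8964 (median 6726.5) and 2391 to 8854 (median 7002), so depth and gene number overlapped widely. The ERCC share of all reads was 0.161% to 0.872% (median 0.55%) in the high cells and 0.307% to 6.376% (median 2.462%) in the low cells. Every high cell was under 1%, as were 4 of the 10 low cells, all with micronuclei. Reads from mitochondrial genes made up 0.444% to 2.545% (median 1.132%) of the high cells' totals and 0.504% to 25.696% (median 3.162%) of the low cells' totals, with 6 of the 10 low cells above every high cell. Spike-in and mitochondrial shares thus moved with the side, and their part in the differences below was not tested. Low cells that stand apart are micronucleated cell 6 (2391 genes), cell 1 without micronuclei (3861 genes), and micronucleated cells 4 and 18 (9.569% and 25.696% mitochondrial reads).

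**Figure D2:**
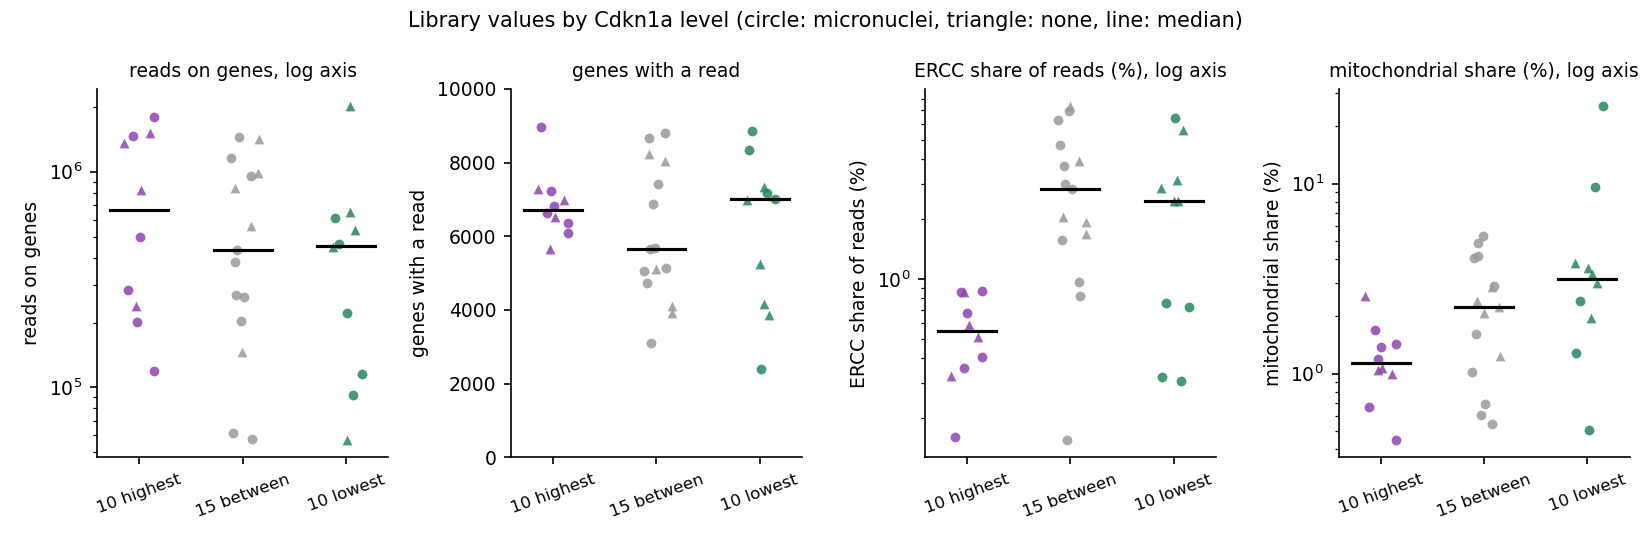
Reads on genes, genes with a read, ERCC share and mitochondrial share (vertical axes, 3 of them logarithmic) of each cell, by position in the Cdkn1a ranking (horizontal axis). Circles are cells with micronuclei, triangles cells without, and lines are medians, which for the ERCC share are 0.55% in the 10 highest, 2.83% in the 15 between and 2.462% in the 10 lowest.

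Both sides carried the fibroblast genes. The summed level of 10 fibroblast markers was 6030 to 14130 CPM (median 10890) in the high cells and 6296 to 13370 CPM (median 8721) in the low cells. The sum includes Vim, at up to 3960 CPM in a high cell and 9250 CPM in a low one. At least 5 reads fell on 6 to 9 of the 10 markers in the high cells and on 3 to 8 in the low cells (median 7 on both sides). Col1a1, the main collagen chain, was read in all 20 cells, at 851 to 5636 CPM in the high and 281 to 4023 CPM in the low cells. Macrophage markers were strong in a few of the low cells. Micronucleated cell 10 had reads on 12 of the 13 macrophage markers, 16939 CPM in sum, micronucleated cells 18 and 4 had reads on 7 and 6 of them (477.5 and 368.7 CPM), and micronucleated cell 6 had 1452.5 CPM on a single one, Csf1r. No high cell exceeded 60.3 CPM, and the part of these reads in the differences was not tested. Endothelial, adipocyte and erythroid markers stayed at or under 33.4, 75.6 and 14.9 CPM in the 20 cells. Epithelial, neural and chondrocyte markers reached 238.6, 230.7 and 479.3 CPM in a high cell and 408.5, 481.4 and 916 CPM in a low cell. Skeletal muscle markers reached 6445 CPM in a high cell and 5274 CPM in a low one.

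A gene was measured when it had a mean of at least 5 CPM over the 20 cells and at least 5 reads in at least 5 of them, which 7092 of 19085 genes did. The difference is given as the log2 ratio of the mean CPM of the high cells to that of the low cells, with 1 CPM added to both. A gene past 2-fold (a log2 ratio of at least 1 or at most -1) is called higher or lower here. Of the measured genes 1637 (23.1%) were at least 2-fold higher in the high cells and 683 (9.63%) at least 2-fold lower, with a median log2 ratio of 0.285. These shares are the background for the counts of genes below that use the same cells, scaling and average. Scaling by scran size factors moved the median to -0.03 and the split to 1171 higher and 1160 lower, so the excess of higher genes depended on the scaling, and a list's median is best read against that of all genes. Calls that ended under another choice are named with the genes. The scran choice means cells chosen again by scran-scaled Cdkn1a, which kept 8 high and 8 low cells, and gave 14.4% of genes higher, 15.5% lower and a median of -0.03. The thinned choice means cells chosen again after thinning all libraries to the same number of reads, which kept 9 and 8. The sign held without any single cell, and for summed reads and mean log values, for 2821 of the genes above 0 and 1001 of those below.

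Targets of p53 were higher in the high cells as a group. Of 62 listed targets 39 were measured: 17 of them (43.6%) were at least 2-fold higher and 2 (5.1%) at least 2-fold lower, with a median log2 ratio of 0.67 against 0.285 for all genes. A target read on 1 side alone can pass the filter through that side. Among the higher ones, Trp53inp1, Psrc1, Aen, Polk, Sesn2, Ephx1, Slc19a2, Cpt1c and Sulf2 met the 5-cell rule on the high side alone. Their calls are therefore weaker than those of targets read on both sides. With a strict filter (20 CPM, 10 cells) 10 of 23 were higher and 1 lower, beside 16.3% and 6.8% of all genes. Scran scaling left 15 higher and 2 lower, with a median of 0.33 against -0.03. With the scran choice of cells the excess was smaller, with 12 of 43 higher, 5 lower and a median of 0.39 against -0.03. Their summed level ran from 4111 to 8901 CPM (median 5690) in the high cells, from 3377 to 5522 CPM (median 4299) in the cells between and from 2205 to 5748 CPM (median 3430) in the low cells. The high cell had more in 87 of the 100 pairs of a high and a low cell. The sides overlapped: 3 of the 10 high cells lay above every low cell and 6 of the 10 low cells below every high cell. At the upper end of the low side were cells 1 and 2 without micronuclei, with 5748 and 5338 CPM.

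The same direction was seen within either micronuclei label. In the 6 and 5 micronucleated cells of the 2 ends, 15 of 30 measured targets were at least 2-fold higher and 2 lower (median 1.00). Over all genes measured there, 26.7% were higher and the median was 0.40. In the 4 and 5 cells without micronuclei 9 of 20 were higher and 1 lower (median 0.74), beside 20.2% and 0.10 over all genes. Without the 4 low cells that stand apart, 18 of 38 were higher (median 0.93), beside 20.5% and 0.19. Without the 3 low cells that had reads on at least 4 macrophage markers, 19 of 38 were higher (median 0.88), beside 27.9% and 0.29. Among cells with an ERCC share under 1%, 10 high and 4 low, 15 of 39 were higher (median 0.65), beside 21.3% and 0.34. Those 4 low cells are micronucleated cells 4, 10, 16 and 18. Cells 4, 10 and 18 are the 3 with macrophage transcripts, and cells 4 and 18 also stand apart, so the spike-in share is not separated from these traits.

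**Figure D3:**
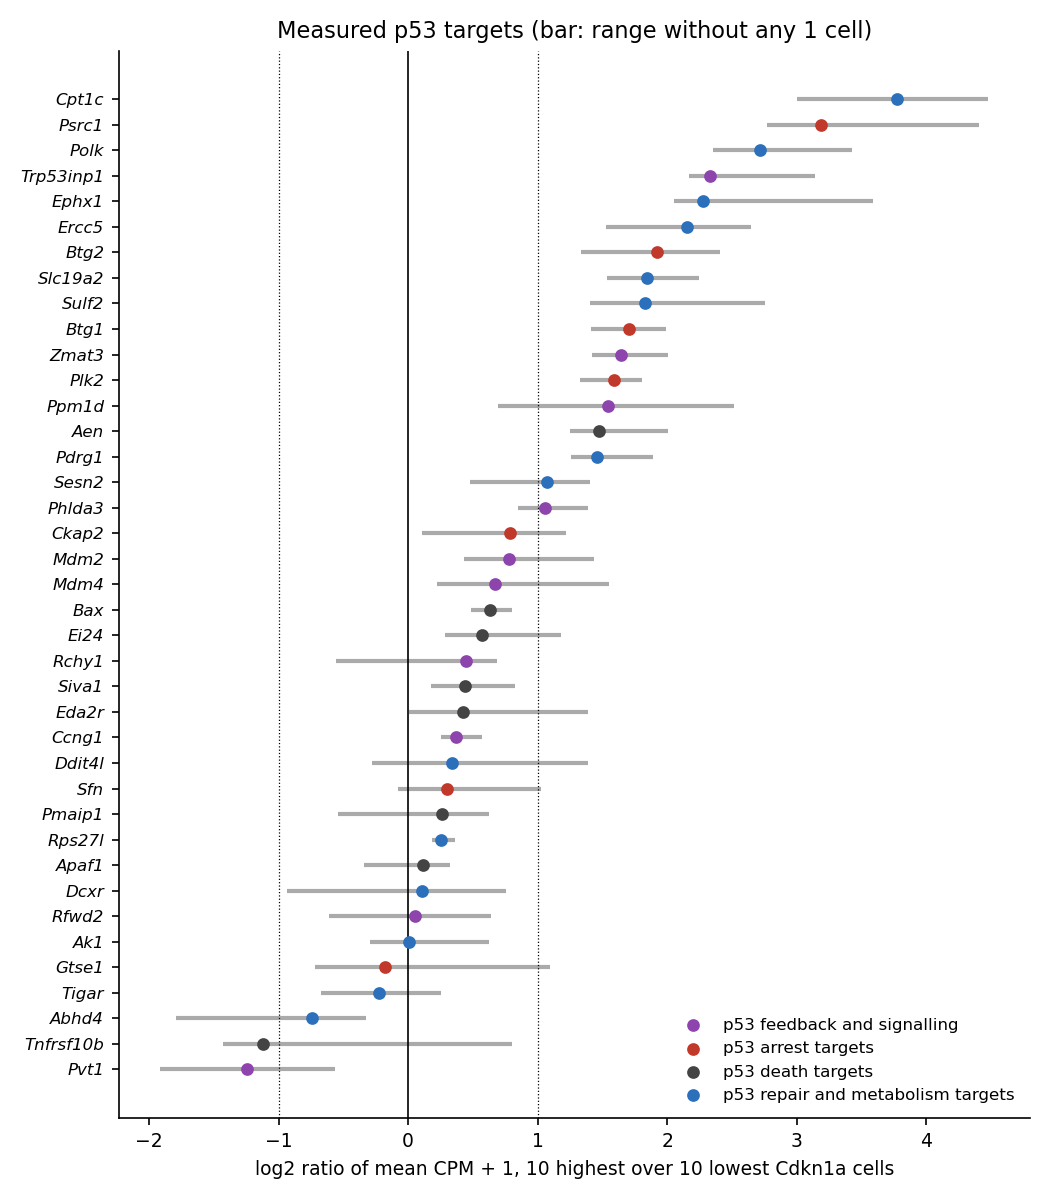
Log2 ratio of mean CPM + 1 in the 10 highest over the 10 lowest Cdkn1a cells (horizontal axis) for the 39 measured p53 targets (vertical axis), coloured by role, with bars spanning the ratios obtained without any 1 cell. Ratios run from 3.77 for Cpt1c to -1.24 for Pvt1, and dotted lines mark 2-fold.

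Of the targets that feed back on p53 or on survival signalling, 4 of 10 measured members were at least 2-fold higher and 1 lower, with a median of 0.73. Trp53inp1, a stress protein that enhances p53 activity (chr4:11156431-11174379), stood at 0 to 144 CPM (median 71.6) in the high cells and 0 to 69.5 CPM (median 0) in the low cells, a log2 ratio of 2.33. It had no read in 6 of the 10 low cells and at least 5 reads in 8 of the high cells. Zmat3, an RNA-binding regulator of splicing, stood at 0.740 to 213 CPM (median 98.3) against 0 to 88.1 CPM (median 23.4), a log2 ratio of 1.65. Phlda3, a repressor of Akt signalling, was read in all 10 high cells at 52.3 to 841 CPM (median 373) and in 9 low cells at up to 517 CPM (median 96.2). Its log2 ratio of 1.06 was close to the limit, and fell to between 0.85 and 0.97 when any one of micronucleated cells 4, 6 and 18 or cells 4, 7 and 13 without micronuclei was left out. Phlda3 also lost its call after TMM or scran scaling, with the scran choice, among cells without micronuclei and without the low cells that stand apart.

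The central inhibitors of p53 differed less. Mdm2, the ubiquitin ligase that degrades p53, stood at 4.18 to 659.9 CPM (median 169.6) in the high cells and 0 to 562 CPM (median 106) in the low cells. Its log2 ratio of 0.78 did not reach 2-fold, and the sides overlapped over most of their range. Ppm1d, the phosphatase that switches off damage signalling, had a log2 ratio of 1.55 that rested on few cells: it was 0.69 without micronucleated cell 5 and 2.52 without micronucleated cell 10, and its call was lost without the low cells that stand apart and with an ERCC share under 1%. Ccng1, a cyclin that acts on Mdm2, had nearly the same level at both ends, 185 to 539 CPM (median 362) and 77.2 to 631 CPM (median 294). Trp53, the gene of p53 itself, stood at 0 to 292 CPM (median 114) and 0 to 211 CPM (median 86.8), a log2 ratio of 0.67. Pvt1, a non-coding RNA next to Myc, was the lower member at -1.24.

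Targets listed under cell cycle arrest had the largest median of the 4 roles by mean CPM. Of 7 measured, 4 were at least 2-fold higher and 0 lower, with a median of 1.59. They kept that place after TMM or scran scaling and within either micronuclei label. Repair, redox and metabolic targets had the larger median for summed reads (1.983 against 1.547) and with the thinned choice (1.455 against 0.935). The same held with 7 cells a side, with a strict filter (20 CPM, 10 cells) and without the low cells with macrophage transcripts. Psrc1, a microtubule-binding protein (chr3:108383839-108388231), stood at 0 to 596 CPM (median 156) in the high cells and 0 to 123 CPM (median 3.09) in the low cells, a log2 ratio of 3.19. Plk2, a polo-like kinase of G1, was read in all high cells at 35.7 to 651 CPM (median 231), against 0 to 194 CPM (median 81.9), a log2 ratio of 1.59. The antiproliferative genes Btg1 and Btg2 had log2 ratios of 1.70 and 1.92. They did so in different ways. Btg1 had at least 5 reads in all 10 high and in 5 low cells, and Btg2 in 6 cells of either side, with its highest level, 888 CPM, in micronucleated cell 5. Plk2 lost its call with the scran and the thinned choice of cells, Btg1 with the thinned choice, and Btg2 for summed reads and mean log values.

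Targets that promote cell death had 1 of 8 members at least 2-fold higher, 1 lower and a median of 0.44. This depended on the average: for mean log values 4 of 8 were higher and 0 lower, with a median of 1.10, beside 1.25 for the arrest targets and 0.497 for all genes. The higher one was Aen, an apoptosis-enhancing nuclease, at 0 to 151 CPM (median 73.5) against 0 to 88.5 CPM (median 0.930), a log2 ratio of 1.48. Aen lost its call with the scran choice, among micronucleated cells and with an ERCC share under 1%. Bax, which permeabilises the mitochondrial outer membrane, stood at 243 to 848 CPM (median 408) against 0 to 576 CPM (median 286), and its log2 ratio of 0.64 stayed between 0.48 and 0.80 without any one cell. Siva1, a pro-apoptotic adaptor, and Pmaip1, a BH3-only protein, had log2 ratios of 0.44 and 0.26. Tnfrsf10b, a death receptor, was the lower one at -1.12.

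Repair, redox and metabolic targets had 8 of 14 members at least 2-fold higher, 0 lower and a median of 1.27. Polk, a translesion DNA polymerase, stood at 0 to 183 CPM (median 30.9) in the high cells and 0 to 40.3 CPM (median 2.72) in the low cells, a log2 ratio of 2.72. Ercc5, an endonuclease of nucleotide excision repair, had a log2 ratio of 2.15. Ephx1, the microsomal epoxide hydrolase, stood at 0 to 119.6 CPM (median 56.3) against 0 to 67.9 CPM (median 0), with a log2 ratio of 2.28. All but 3 of its low-side reads were in cell 13 without micronuclei, and its call was lost with the scran choice. Slc19a2, a thiamine transporter, had a log2 ratio of 1.85. Cpt1c, a brain-type carnitine palmitoyltransferase, had the largest ratio of all measured targets at 3.77, and micronucleated cell 2 held 45.6% of its level summed over the 20 cells. Sesn2, a stress-induced inhibitor of mTORC1, had a ratio of 1.07 that fell to 0.48 without micronucleated cell 13 and to between 0.89 and 0.93 without any of 5 other cells, and its call was lost under several scalings and choices of cells. Sesn1 and Gdf15, well known p53 targets, did not pass the filter: Sesn1 was at or under 33.4 CPM and Gdf15 at or under 73.2 CPM in each of the 20 cells.

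Promoter windows of 3 of these targets are shown because they hold a match to the p53 half-site. They are RefSeq windows of GRCm38.p6, from 250 bases before to 50 after an annotated start, and capitals mark the match. A gene can have several such starts, and the window with the most matched letters is shown. The Polk window lies inside the gene (chr13:96480690-96542579, minus strand) and not at its outer start. The window of Aen is chr7:78895677-78895976 on the plus strand, that of Polk chr13:96519138-96519437 on the minus strand and that of Ccng1 chr11:40755237-40755536 on the minus strand.
Aen: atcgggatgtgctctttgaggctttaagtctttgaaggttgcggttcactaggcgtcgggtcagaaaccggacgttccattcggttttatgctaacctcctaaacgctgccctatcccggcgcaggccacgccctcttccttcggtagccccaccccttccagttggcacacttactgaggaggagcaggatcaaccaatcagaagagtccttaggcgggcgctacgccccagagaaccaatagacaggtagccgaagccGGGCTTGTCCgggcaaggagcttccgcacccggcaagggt
Polk: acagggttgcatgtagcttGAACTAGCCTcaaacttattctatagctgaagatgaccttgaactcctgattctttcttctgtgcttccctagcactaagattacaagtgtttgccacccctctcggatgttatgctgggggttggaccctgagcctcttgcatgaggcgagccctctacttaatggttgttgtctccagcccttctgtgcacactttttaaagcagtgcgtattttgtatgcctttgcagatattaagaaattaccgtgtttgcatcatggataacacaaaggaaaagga
Ccng1: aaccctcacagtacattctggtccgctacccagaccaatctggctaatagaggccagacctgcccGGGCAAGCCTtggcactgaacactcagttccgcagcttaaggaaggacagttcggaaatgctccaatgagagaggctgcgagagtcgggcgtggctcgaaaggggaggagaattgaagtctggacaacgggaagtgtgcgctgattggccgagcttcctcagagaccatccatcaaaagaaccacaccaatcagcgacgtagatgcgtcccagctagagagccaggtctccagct
The search, for the p53 half-site consensus on either strand, was added after the values were seen. A half-site was found in 16 of 51 listed targets with a window (31.4%) and in 9.55% of all 27025 genes with one. It did not go with the size of the difference. Of the 14 measured targets with a match 3 were at least 2-fold higher, with a median of 0.51, and of the 19 without a match 12 were, with a median of 1.46. A match is a description of letters and not a bound site, and p53 sites often lie in introns outside these windows.

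Immediate early genes, which growth factors and stress switch on within minutes, had the largest share of higher members of the lists with at least 3 measured genes. Of 14 members 10 (71.4%) were at least 2-fold higher and 0 lower, with a median of 1.37, and Btg2 belongs to this list as well as to the p53 arrest targets. Their summed level was 755.9 to 3905 CPM (median 1828) in the high cells, 190.8 to 3239 CPM (median 1323) in the cells between and 118 to 1060 CPM (median 773.9) in the low cells. In 8 of the 10 high cells it exceeded that of every low cell, and the high cell had more in 93 of 100 pairs. With the scran choice of cells 4 of 15 were at least 2-fold higher and 1 lower, and the median fell to 0.56. Scran scaling of the same cells left 8 of 14 higher (median 1.17), as did leaving out the low cells that stand apart (median 1.10) or keeping only cells with an ERCC share under 1% (median 1.09). Among the 15 cells between, the median rank correlation of these genes with Cdkn1a was -0.08 and that of the p53 targets 0.13, beside 0.06 over all genes, a description over 15 cells that share one total of reads.

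**Figure D4:**
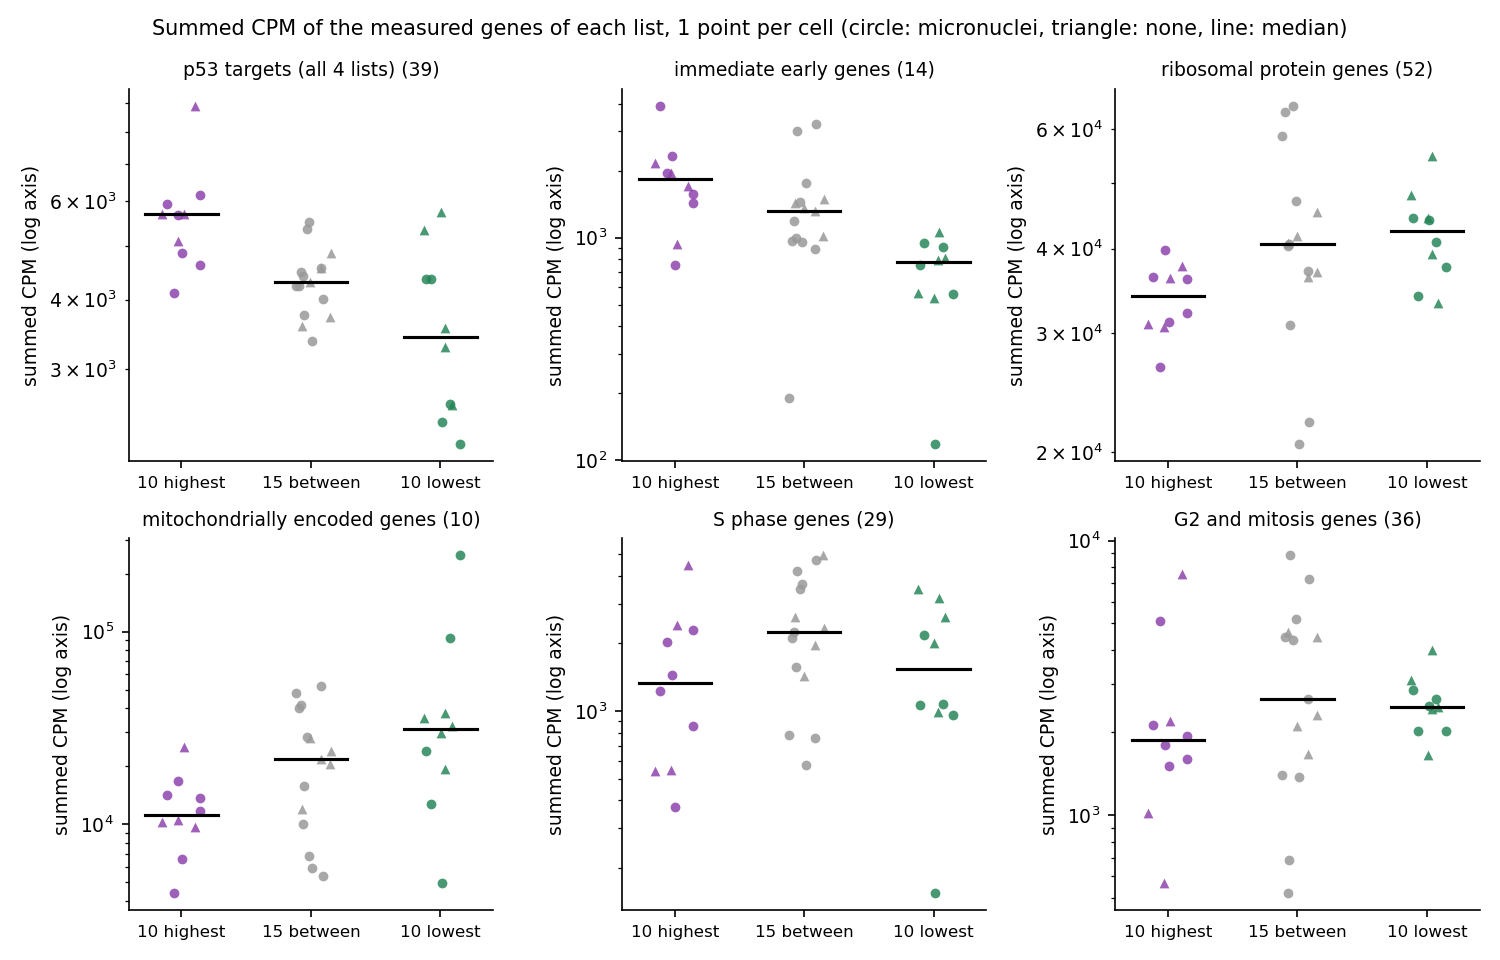
Summed CPM (vertical axes, logarithmic) of the measured genes of 6 lists in each cell, by position in the Cdkn1a ranking (horizontal axis). Circles are cells with micronuclei, triangles cells without, and lines are medians: for the immediate early genes 1828 in the 10 highest, 1323 in the 15 between and 773.9 in the 10 lowest.

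Fos, the AP-1 subunit (chr12:85473890-85477273), stood at 0 to 724 CPM (median 52.4) in the high cells and 0 to 78.1 CPM (median 1.08) in the low cells, a log2 ratio of 2.87. Nr4a1, an orphan nuclear receptor, stood at 0.740 to 1082 CPM (median 272) against 0 to 298 CPM (median 44.3), a log2 ratio of 2.19 with the high cell above in 86 of 100 pairs. Nr4a1 was read in every high cell, and the highest Fos level, 724 CPM, was that of micronucleated cell 14. Ier5, a regulator of heat shock factor, had a log2 ratio of 2.40, and Junb, another AP-1 subunit, 1.81. Junb lost its call with the scran choice and with an ERCC share under 1%. Dusp1, a phosphatase of MAP kinases, and Klf10, a zinc finger repressor, did not share the direction, with log2 ratios of -0.07 and -0.56.

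The factors known to act on the Cdkn1a gene were mixed. Of 16 measured regulators 5 were at least 2-fold higher and 2 lower, with a median of 0.52. Klf6, a zinc finger activator of Cdkn1a, was read in all high cells at 229 to 1074 CPM (median 772) and stood at 0 to 721 CPM (median 249) in the low cells, a log2 ratio of 1.39. Egr1, an immediate early zinc finger factor (chr18:34859823-34864984), stood at 124 to 1785 CPM (median 574) against 0 to 808 CPM (median 168), a log2 ratio of 1.32. Both were read in every high cell, and they had no read in 2 and 1 of the low cells. Klf6 lost its call with the scran choice and among cells without micronuclei. The other 3 higher members were Foxo3, Smad3 and Ep300 (2.08, 1.14 and 1.03), and the lower ones Smad2 and Smad4 (-1.59 and -1.05), mediators of TGF-beta signals. Myc, a repressor of Cdkn1a, had a ratio of 0.97.

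Genes of the cell cycle had no single direction over the averages and choices of cells tried. Of 29 measured S phase genes 5 were at least 2-fold higher and 3 lower (median 0.13), and of 36 G2 and mitosis genes 4 were higher and 4 lower (median -0.06). For the G2 and mitosis genes the direction depended on how cells were weighted. The median was -0.70 for mean log values (3 higher, 15 lower), beside 0.497 over all genes. After scran scaling it was -0.52 (3 higher, 8 lower), beside -0.03 over all genes. For summed reads it was 1.18 (20 higher, 1 lower), beside 0.397 over all genes. Summed reads give deeper cells more weight. Cell 4 without micronuclei and micronucleated cell 13 were the deepest high cells, with 1516844 and 1794113 reads on genes. With the scran choice of cells 21 of 38 G2 and mitosis genes were lower and 1 higher (median -1.14), and 9 of 29 S phase genes were lower and 2 higher (median -0.33). The summed level of the G2 and mitosis genes was 566.8 to 7529 CPM (median 1870) in the high cells. In the low cells it was 1655 to 4004 CPM (median 2480), and the high cell had more in 28 of 100 pairs. In 4 of the 10 high cells it was below every low cell, while cell 4 without micronuclei (7529 CPM) and micronucleated cell 13 (5085 CPM) were above every low cell. Of the 20 cells, the high side thus held the lowest 4 and the highest 2 for mitotic genes, and its median lay below that of the low side.

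Top2a, the topoisomerase of dividing cells, stood at 0 to 151 CPM (median 18.1) in the high cells and 0 to 440.4 CPM (median 92.3) in the low cells, a log2 ratio of -1.64. It lost its call for summed reads, among micronucleated cells alone, with the 7 highest and 7 lowest cells, and in cells with an ERCC share under 1%. Mki67, the proliferation antigen, had at least 5 reads in 2 high and 5 low cells, with a log2 ratio of -0.99. Cdk1, the mitotic kinase, had nearly the same range at both ends, 0 to 664 CPM (median 97.2) and 0 to 685 CPM (median 67.9). Cdc20, the activator of the anaphase-promoting complex, had the opposite sign, at 0 to 218 CPM (median 25.4) against 0 to 49.6 CPM (median 4.34), a log2 ratio of 2.68 that turned to -0.35 when the cells were chosen again by scran-scaled Cdkn1a, and its call was also lost with the thinned choice. Ccnb1, cyclin B1, did not pass the filter and had reads in 2 high and 7 low cells, at up to 245 CPM and 70.5 CPM. Pcna, the sliding clamp of replication, had a log2 ratio of -0.26.

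The promoters of Cdc20, Top2a, Ccnb1 and Cdk1 are shown because p21 is known to act on such genes through the cell cycle homology region (CHR), bound by DREAM, and the neighbouring CCAAT boxes, bound by NF-Y. Capitals mark each TTTGAA or TTTAAA (the CHR) and each CCAAT, on either strand, in the windows chr4:118437294-118437593, chr11:99024140-99024439, chr13:100786437-100786736 and chr10:69352863-69353162, all on the minus strand of GRCm38.p6.
Cdc20: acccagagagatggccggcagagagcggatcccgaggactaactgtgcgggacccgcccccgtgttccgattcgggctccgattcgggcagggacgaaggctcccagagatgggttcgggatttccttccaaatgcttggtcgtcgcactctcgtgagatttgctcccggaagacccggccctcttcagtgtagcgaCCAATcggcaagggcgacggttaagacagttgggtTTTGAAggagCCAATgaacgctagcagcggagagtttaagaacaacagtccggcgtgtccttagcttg
Top2a: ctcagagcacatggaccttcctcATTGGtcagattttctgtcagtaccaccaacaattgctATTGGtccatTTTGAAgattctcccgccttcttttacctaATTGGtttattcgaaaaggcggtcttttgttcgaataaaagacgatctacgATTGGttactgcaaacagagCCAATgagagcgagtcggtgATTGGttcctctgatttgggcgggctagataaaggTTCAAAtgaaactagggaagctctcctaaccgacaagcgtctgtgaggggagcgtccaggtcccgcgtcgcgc
Ccnb1: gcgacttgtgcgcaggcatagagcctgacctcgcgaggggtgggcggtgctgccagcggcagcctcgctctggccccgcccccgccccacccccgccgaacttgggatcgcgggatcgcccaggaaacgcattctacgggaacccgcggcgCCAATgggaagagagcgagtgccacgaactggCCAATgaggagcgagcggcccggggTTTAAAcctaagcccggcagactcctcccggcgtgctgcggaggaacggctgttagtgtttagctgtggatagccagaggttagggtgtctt
Cdk1: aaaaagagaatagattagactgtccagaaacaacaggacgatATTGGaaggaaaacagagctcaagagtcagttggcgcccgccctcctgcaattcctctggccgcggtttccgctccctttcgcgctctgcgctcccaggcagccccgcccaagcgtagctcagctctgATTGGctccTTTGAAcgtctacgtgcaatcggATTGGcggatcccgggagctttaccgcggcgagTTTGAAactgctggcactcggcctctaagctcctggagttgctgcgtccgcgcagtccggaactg
A CHR was found in 39 of 47 listed G2 and mitosis genes with a window (83.0%), in 9 of 33 S phase genes (27.3%) and in 30.6% of all genes. CCAAT was found in 36 of 47 (76.6%), 24 of 33 (72.7%) and 41.1%, and both together in 66.0% of the G2 and mitosis genes and 12.2% of all genes. By mean CPM the motif did not go with a shared direction. Of the 29 measured G2 and mitosis genes with a CHR 4 were at least 2-fold higher and 3 lower, with a median of -0.05. All 4 promoters shown hold both motifs, while Cdc20 had a ratio of 2.68, Top2a of -1.64 and Cdk1 of -0.05.

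Cyclins, kinases and pocket proteins of G1 went in both directions, with 1 of 15 at least 2-fold higher, 4 lower and a median of 0.02. Ccnd2, cyclin D2, stood at 69.9 to 1187 CPM (median 641) in the high cells and 289 to 5932 CPM (median 711) in the low cells. Its log2 ratio of -1.45 rested on cell 1 without micronuclei, without which it was -0.97. The call was also lost with an ERCC share under 1% and without the low cells that stand apart, which include that cell. Rbl2, the pocket protein p130 of the DREAM complex, had a ratio of -3.98 that was -6.15 without micronucleated cell 2 and -2.46 without cell 1 without micronuclei, and at least 5 reads in 1 high and 4 low cells. E2f4, the repressor E2F of the same complex, had a ratio of 2.87 and at least 5 reads in 5 high cells and 1 low cell, and lost its call with the scran choice. Cdk4, the kinase of D-type cyclins, stood at 70.2 to 875 CPM (median 364) against 0 to 439 CPM (median 269.5), a ratio of 0.82, and Ccnd1, cyclin D1, had a ratio of 0.02. Exon bases of Rbl2, Ccnd1, Ccnd2 and Cdk4 also belong to genes on the opposite strand, so their counts are uncertain.

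Other inhibitors of cyclin-dependent kinases did not follow Cdkn1a. Cdkn1b, which encodes p27, stood at 0 to 116 CPM (median 24.6) in the high cells and 0 to 92.8 CPM (median 27.6) in the low cells, a log2 ratio of -0.11. Cdkn2b, p15, had a ratio of 0.87, which ran from 0.34 to 2.68 without any one cell. Cdkn2d, p19, had at least 5 reads in 1 high and 4 low cells, with a ratio of -4.18. Cdkn2a, the locus of p16 and Arf, did not pass the filter and was at or under 14.2 CPM in each of the 20 cells.

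Genes of quiescence had ratios above 0 in 6 of 7 cases, with 3 (42.9%) at least 2-fold higher and 0 lower. Their median was 0.97, and over all genes 23.1% were higher with a median of 0.285. The summed level was 91.97 to 1014 CPM (median 372.5) against 40.85 to 342.9 CPM (median 149.7). One of the 3 is Ccng2, a cyclin of resting cells, which had at least 5 reads in 5 high cells and no low cell, 6 low-side reads in all, and so passed the filter through the high side alone: its call was fixed by the filter and supports no count. Gas7, a growth arrest gene, had a ratio of 2.83, with at least 5 reads in 5 high and 3 low cells. The third, Txnip, had a ratio of 2.14 that fell to as little as 0.63 without a single cell. Its median was lower in the high cells (3.06 against 24.4 CPM), and the high cell was above in 50 of 100 pairs. Senescence and secretory genes had 4 of 21 at least 2-fold higher and 3 lower (median 0.24), near the background. Spp1, osteopontin, stood at 0 to 6127 CPM (median 437) against 0 to 710.1 CPM (median 156), with a ratio of 2.16 that was 1.35 without micronucleated cell 14. The chemokine Ccl2 had a ratio of 2.01, with no call among cells without micronuclei. Its neighbour Ccl7 had one of 1.42 that became 2.61 without cell 13 without micronuclei and lost its call with the thinned choice, with 7 cells a side and without the low cells that stand apart. Glb1, the lysosomal beta-galactosidase, had a ratio of 0.98. Lmnb1, lamin B1, did not pass the filter and was at or under 15.1 CPM in each of the 20 cells.

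Mitochondrially encoded genes were lower in the high cells, with 0 of 10 at least 2-fold higher, 8 lower and a median of -1.38. Their summed level was 4365 to 25210 CPM (median 11150) in the high cells and 4938 to 249900 CPM (median 31020) in the low cells, and the high cell had more in only 15 of 100 pairs. The sign of the median was the same without the 4 low cells that stand apart, where 6 of 10 were lower (median -1.08). In cells with an ERCC share under 1% it was also the same, with 5 of 10 lower (median -1.14). The 4 low cells there still include micronucleated cells 4 and 18, with 9.569% and 25.696% mitochondrial reads. The size was smaller in both comparisons, and smallest of these with the scran choice of cells, where 3 of 10 were lower (median -0.73). The median rank correlation of the 10 genes with Cdkn1a was -0.395 over all 35 cells and 0.05 over the 15 cells between. The ribosomal RNAs mt-Rnr2 and mt-Rnr1 had ratios of -2.41 and -2.89, which were -1.49 and -1.84 without micronucleated cell 18. mt-Nd2, a subunit of complex I, stood at 149.9 to 828 CPM (median 349) against 36.3 to 2838 CPM (median 812), a ratio of -1.49. mt-Nd2 lost its call among micronucleated cells and with an ERCC share under 1%, and mt-Rnr1 without the low cells that stand apart or without those with macrophage transcripts. Nuclear genes of oxidative phosphorylation did not share this, with 1 of 28 at least 2-fold higher, 0 lower and a median of 0.21. The higher one was Cyc1, cytochrome c1, at 102 to 628 CPM (median 279.6) against 0 to 315 CPM (median 79.3), a ratio of 1.65 that lost its call with the scran choice. Against the ERCC spike-ins the mitochondrial reads were not lower in the high cells. Mitochondrial reads per ERCC read were 1.08 to 7.75 (median 1.94) in the high cells and 0.074 to 35.1 (median 1.37) in the low cells, with the high cell above in 59 of 100 pairs. Reads on all genes per ERCC read were 113.7 to 619 (median 182) and 14.68 to 325 (median 39.6), with the high cell above in 76 of 100 pairs. The lower mitochondrial share thus stood beside more reads of all genes per spike-in read, and whether each cell received the same amount of spike-in is not given in the sources used here.

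Ribosomal protein genes shifted by little but together. Of 52 measured genes 0 reached 2-fold in either direction, 44 had a ratio below 0 and the median was -0.39, against 0.285 for all genes. Their summed level was 26720 to 39870 CPM (median 34070) in the high cells and 33240 to 54770 CPM (median 42510) in the low cells, with 6 of the 10 low cells above every high cell. With the scran choice of cells the median ratio was -0.22, against -0.03 for all genes. The median rank correlation of these genes with Cdkn1a was -0.22 over all 35 cells and 0.10 over the 15 cells between. Rplp1, a protein of the ribosomal stalk, stood at 689 to 1290.4 CPM (median 900.3) against 1092 to 2754 CPM (median 1510.2), a ratio of -0.84, with the high cell above in 6 of 100 pairs. Rps20, Rps12 and Rpl28 had ratios of -0.96, -0.76 and -0.76. Eif3a, a translation initiation factor, had a ratio of -1.16 that was -0.84 without cell 1 without micronuclei, and no call for summed reads, among micronucleated cells or without the low cells that stand apart.

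**Figure D5:**
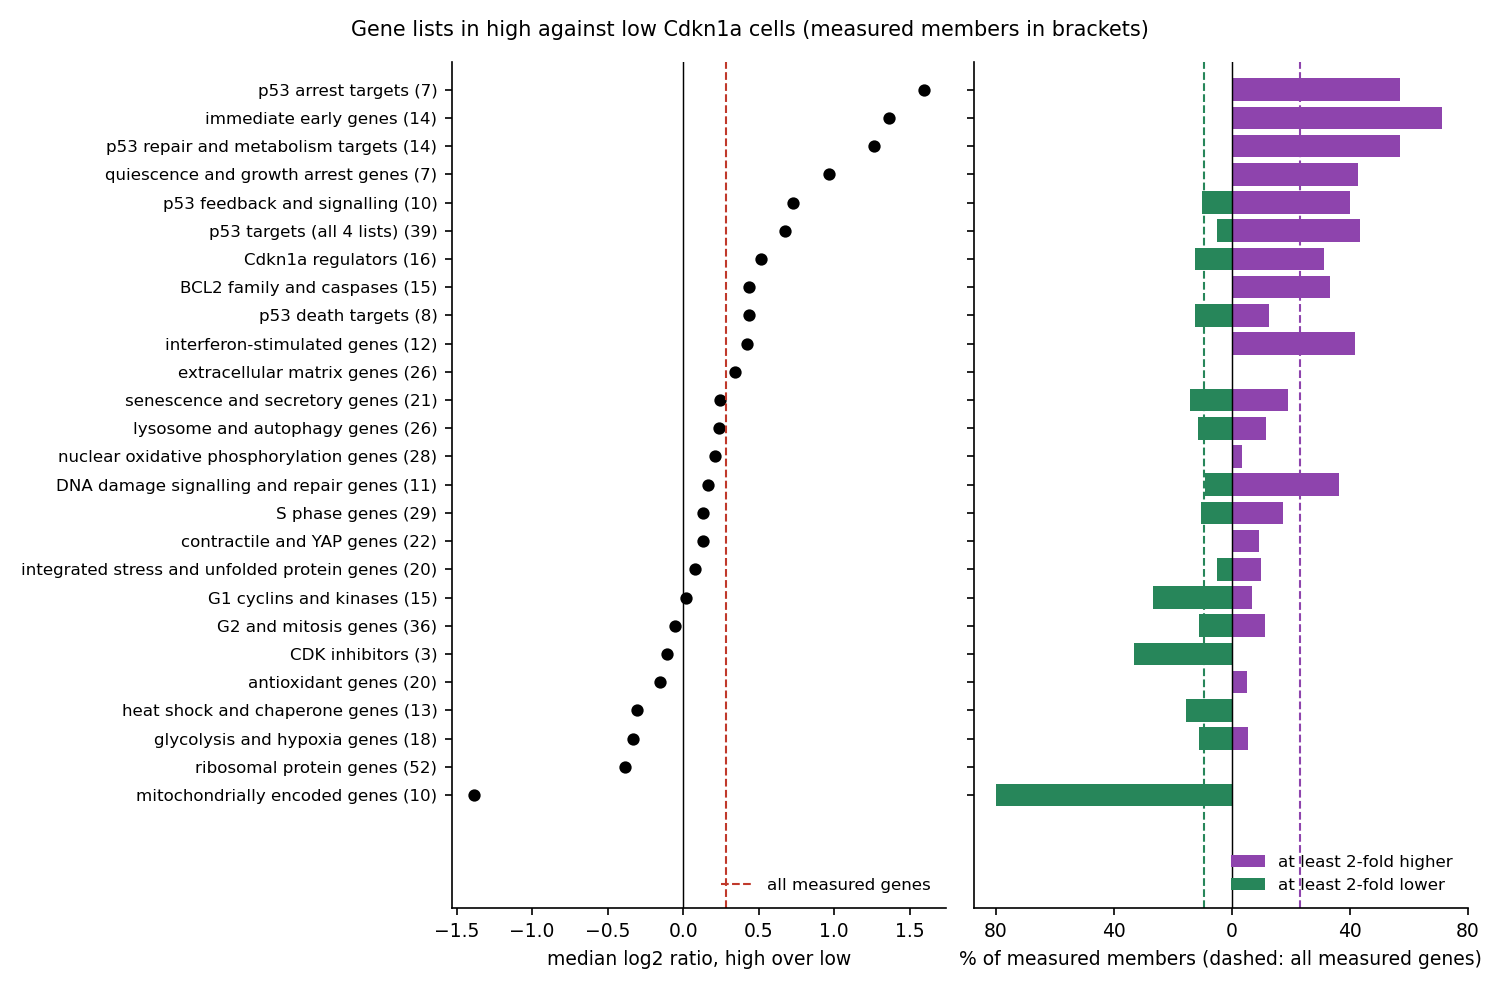
Median log2 ratio of the measured members (left, horizontal axis) and percent of them at least 2-fold higher or lower in the high cells (right, horizontal axis) for each gene list (vertical axis), with dashed lines for all measured genes (median 0.285, 23.1% higher, 9.63% lower). The p53 arrest targets (median 1.59) and the mitochondrially encoded genes (median -1.38) are the ends of the range.

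Besides the p53 targets, immediate early genes, quiescence genes (42.9%) and Cdkn1a regulators (31.2%), 3 further small lists had a share of higher members above the background of 23.1%. In these 3 each count moved with the filter or the choice of cells. Interferon-stimulated genes had 5 of 12 (41.7%) at least 2-fold higher, 0 lower and a median of 0.42. With the strict filter (20 CPM and 10 cells) 0 of 7 were higher (median 0.03), and with the scran choice 6 of 14 were higher and 2 lower. Among them Lgals3bp, a secreted glycoprotein, had a ratio of 3.72, and Bst2, tetherin, one of 1.81 that was 1.02 without micronucleated cell 5 and lost its call with an ERCC share under 1%. Trim25, a ubiquitin ligase of RIG-I signalling, had at least 5 reads in 6 high cells at up to 344 CPM and 3 reads in all on the low side, so it passed the filter through the high side alone. Caspases and the BCL2 family had 5 of 15 (33.3%) higher, 0 lower and a median of 0.44, against 1 of 8 higher with the strict filter and 3 of 12 higher and 3 lower with the scran choice. Bad, a BH3-only protein, stood at 1.94 and lost its call for summed reads. DNA damage genes had 4 of 11 (36.4%) higher, 1 lower and a median of 0.17, against 3 of 5 higher with the strict filter and 1 of 13 higher and 3 lower with the scran choice. H2afx, the histone variant H2AX, stood at 1.61 and lost its call with the scran and thinned choices and among micronucleated cells.

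Stress and housekeeping lists had few calls. The integrated stress and unfolded protein genes had 2 of 20 higher and 1 lower, with Ppp1r15a (GADD34), which restarts translation after stress, at 0 to 364 CPM (median 149) against 0 to 155 CPM (median 11.2), a ratio of 1.83 that lost its call with the scran choice and with an ERCC share under 1%. Heat shock genes had 0 of 13 higher and 2 lower (median -0.30). Antioxidant genes had 1 of 20 higher, the quinone reductase Nqo1, read in all high cells at 42.6 to 1131 CPM (median 241) against 0 to 295 CPM (median 65.0), a ratio of 1.97 that lost its call with the scran choice. Extracellular matrix genes had 0 of 26 past 2-fold in either direction. Contractile and YAP targets had 2 of 22 higher and 0 lower, and Cyr61, a matricellular YAP target, had a ratio of 1.19 that was 0.99 without micronucleated cell 2, and it did not reach 2-fold under several scalings and choices of cells. Lysosome and autophagy genes had 3 of 26 higher and 3 lower. Lamp1, the lysosomal membrane protein, stood at 274 to 1595 CPM (median 478) against 0 to 463 CPM (median 186), a ratio of 1.45, while Gabarapl2, an ATG8 protein, had one of -1.53. With an ERCC share under 1% neither reached 2-fold, nor did Lamp1 among micronucleated cells. Glycolysis genes had 1 of 18 higher and 2 lower, the higher one being the glucose transporter Slc2a1, whose ratio of 1.06 fell to between 0.84 and 0.97 without any one of 7 cells and under several scalings and choices of cells.

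Of the 7092 measured genes, 23.1% of which were at least 2-fold higher, 1 separated the ends without overlap, and the same gene had the highest rank correlation (Spearman) with Cdkn1a over the 35 cells among genes with at least 5 reads in at least 50% of cells. Mtfr1l, a regulator of mitochondrial shape (chr4:134525550-134535387), stood at 74.7 to 321 CPM (median 147) in the high cells and 0 to 67.0 CPM (median 0) in the low cells, so the sides did not overlap. That correlation was 0.68 over all 35 cells, over which the gene was picked, and 0.53 over the 15 cells between, which are among those 35 and so no independent check. The same holds for the other genes of this order. Next in that order were Prrc2b, Tor1a, Flrt2, Sat1 and Meg3, with correlations from 0.61 to 0.58. Tor1a, the torsin ATPase of the nuclear envelope lumen, stood at 37.5 to 307 CPM (median 165) against 0 to 149.7 CPM (median 3.36), and its correlation over the cells between was 0.48. Flrt2, a membrane protein of cell guidance, stood at 122 to 3811 CPM (median 1171) against 0 to 508 CPM (median 204), with a correlation of 0.16 between. Sat1, the polyamine acetyltransferase, stood at 486 to 3509.9 CPM (median 1021) against 9.27 to 2264 CPM (median 239), and Meg3, an imprinted non-coding RNA, at 0 to 193 CPM (median 40.4) against 0 to 21.7 CPM (median 0). Their correlation in the cells between was -0.01 and -0.06, and Sat1 lost its call among micronucleated cells and with an ERCC share under 1%. At the other end of the order Eif3a had a correlation of -0.50 over all cells and -0.52 over the cells between, while mt-Nd2 and Gabarapl2 had -0.53 and -0.52 over all cells.

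Genes chosen because the smallest of their ratios, under the different averages and without each cell, was large include several seen almost wholly on 1 side. Tm7sf2, a sterol reductase of cholesterol synthesis, stood at 0 to 98.9 CPM (median 37.5) in the high cells, while cell 13 without micronuclei was the single low cell with reads, at 13.9 CPM. Atf7, a CREB-family factor, stood at 0 to 254 CPM (median 48.2) against 0 to 10.8 CPM (median 1.02), a ratio of 4.27. Zfp52, a zinc finger protein, and Toe1, a nuclease of small nuclear RNA ends, had ratios of 4.30 and 3.88. Pafah1b3, a catalytic subunit of platelet-activating factor acetylhydrolase, and Pqlc3, a membrane protein, had ratios of 3.38 and 3.35, with at least 5 reads in 7 and 9 high cells. Exon bases of Tm7sf2, Atf7, Zfp52 and Toe1 are shared with other genes, 1212 of them in Toe1 with Tesk2 on the opposite strand.

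On the lower side of that choice stood the pair that copies DNA methylation at replication. Uhrf1, which reads the half-methylated site, stood at 0 to 34.1 CPM (median 4.18) in the high cells and 0 to 428 CPM (median 31.3) in the low cells, a ratio of -3.10. Dnmt1, the methyltransferase, stood at 0 to 34.9 CPM (median 0.940) against 0 to 69.5 CPM (median 18.8), a ratio of -2.29 that was -3.56 without micronucleated cell 12. Both are known as genes of cycling cells. Hist1h4d, a replication-dependent histone H4 gene, had a ratio of -2.91, and since such genes are near-identical copies its counts are uncertain, and its call was lost with the thinned choice. Tcf12, a basic helix-loop-helix factor, was read in all low cells at 14.8 to 908 CPM (median 74.9) and stood at 0 to 117 CPM (median 4.58) in the high cells, a ratio of -2.85. Enpp1, an ecto-pyrophosphatase, had a ratio of -3.40. In the high cells all its reads were in cell 6 without micronuclei, and leaving that cell out made the ratio more negative. Its highest level among the low cells, 304 CPM, was that of cell 1 without micronuclei. Zdbf2, an imprinted gene, and Arhgap21, a GTPase-activating protein, had ratios of -4.79 and -3.84. In cells with an ERCC share under 1%, Uhrf1 and Tcf12 no longer reached 2-fold, nor did Uhrf1 among micronucleated cells alone.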

How the data were processed

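The deposited table holds read counts per gene for 35 cells, as whole numbers and not normalized by the authors. Per the deposited phenotype table and the submitters' processing notes, alignment used STAR and GRCm38.p5, counting used Rsubread, and cells with an ERCC share over 10%, under 2000 genes or under 40000 counts were left out with scater. Tool versions and the strand setting of the counting were not given in the sources used here, so genes that share exon bases with another gene (29 of the 90 named with values, 19 of them on opposite strands) are uncertain. All 35 cells were kept, 0 of 595 pairs of cells were identical, and no doublet caller was run on hand-picked cells.

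Cells were ranked by Cdkn1a CPM (19085 genes, the 62 ERCC RNAs left out), and the 10 highest were compared with the 10 lowest. The ratio, the filter and the 2-fold limit are defined with the results. Reads ranged from 56766 to 2023111 per cell, and depth limits genes with few reads: where 1 side held 3 reads or fewer in all, no ratio is given. Intervals cover counting error only.

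Members and gene lists were chosen with earlier results of these data known. Genes are named by rule: 12 in each direction whose smallest ratio was largest over mean CPM, summed reads, mean log2(CPM + 1) and every left-out cell, among genes of at least 20 CPM; up to 4 per list by the same value; a set of known damage and cell cycle genes; and the 6 highest and lowest rank correlations with Cdkn1a. This gave 158 genes, of which 90 are printed, some genes being not reported here; other list members are named by their place in a count.

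Alternatives were summed reads, mean log values, TMM and scran scaling, totals without mitochondrial reads, cells chosen again by scran-scaled or thinned counts (115191 reads in each of 31 cells), 7 cells a side, 0.1 or 5 CPM added, no filter or a strict one (20 CPM, 10 cells), each micronuclei label alone, and each cell left out. Added after seeing the data were the comparisons without the 4 low cells that stand apart (under 4000 genes or over 9% mitochondrial reads), with an ERCC share under 1%, and without the 3 low cells with reads on at least 4 of 13 macrophage markers. Coordinates are from GENCODE for GRCm38 and promoters from RefSeq (GRCm38.p6). Scripts were tested on simulated data and used R 4.3.3 with edgeR 4.0.16 (TMM factors only) and scran 1.30.0, and Python 3.11.15 with scipy 1.17.1, numpy 2.4.6, pandas 2.3.3 and matplotlib 3.10.9.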

Additional observations from a re-analysis of the deposited data

Results flagged for a closer look

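In 23 of 188 checks the highest or lowest of the 10 cells of a side stood far from the other 9 by Dixon's criterion. Its limit flags about 1 in 20 checks of normally distributed values. Levels with many cells at 0 are not so distributed, so the number of flags does not measure an excess. For Tm7sf2, Enpp1 and Cdkn2d the other 9 cells were all at 0. Levels here are log2(CPM + 1) unless said otherwise.

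Several flags fall on low cells with few genes or many mitochondrial reads. Micronucleated cell 6 was the lowest low cell for mt-Nd2 (5.22), Col1a1 (8.14), and the summed CPM of the immediate early genes (6.89 on the log2 scale) and S phase genes (7.28). Micronucleated cell 18 was highest in mitochondrial share, at 25.7%. Cell 1 without micronuclei was lowest for Sat1 (3.36) and Plk2 (0.0), and cell 7 without micronuclei for Phlda3 and Egr1 (both 0.0).

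On the high side, micronucleated cell 1 had the most genes (8964). Cell 4 without micronuclei had the highest summed p53 target level (13.12 on the log2 scale). Cell 6 without micronuclei was highest for Enpp1 (5.4) and lowest for Tor1a (5.27) and Junb (0.0), and cell 11 without micronuclei lowest for Nr4a1 (0.8) and highest for Cdkn2d (3.06). Micronucleated cell 13 was lowest for mt-Rnr2 (10.65) and Rps20 (5.36), micronucleated cell 14 for Meg3 (0.0), and cell 12 without micronuclei for Trp53 (0.0). A single cell was highest for Dnmt1 (micronucleated cell 12, 5.16) and Rbl2 (micronucleated cell 2, 5.79), and on the low side for Tm7sf2 (cell 13 without micronuclei, 3.9).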

How the results depend on the processing

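Counts of genes depended on scaling, depth and the filter. The number at least 2-fold higher was 1059 with cells chosen again by scran-scaled Cdkn1a, 978 with cells chosen again after thinning, 1055 with the same cells thinned, 4119 without a filter, 672 with the strict filter and 779 among cells without micronuclei. The number lower was 1160 after scran scaling, 1138, 432 and 391 for the same 3 changes of cells and depth, 2607 without a filter, 279 with the strict one, 440 among micronucleated cells and 387 with an ERCC share under 1%. Without any one cell the counts ran from 1511 to 1769 and from 601 to 720. The scran choice kept 8 high and 8 low cells, and thinning 9 and 8. Micronucleated cells then numbered 6 and 7 of 10 on the high side and 5 and 5 of 10 on the low side.

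List medians moved by less than the spread between cells except the ribosomal proteins after scran scaling (-0.794), where all genes moved by a similar amount, the CDK inhibitors for summed reads (-2.10) and the DNA damage genes after thinning (1.65). Without any one cell the p53 targets ran from 0.53 to 1.01, the immediate early genes from 1.14 to 1.69, the mitochondrial genes from -1.63 to -1.09, the ribosomal proteins from -0.43 to -0.35, the S phase genes from -0.15 to 0.27 and the G2 and mitosis genes from -0.75 to 0.10. Choosing the cells by scran-scaled Cdkn1a brought the medians of the p53 targets, immediate early genes and mitochondrial genes to 0.39, 0.56 and -0.73, and that of the G2 and mitosis genes to -1.14.

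Of 66 printed genes past 2-fold, 51 stayed past it with the scran choice of cells and 50 with an ERCC share under 1%, and between 58 and 66 under each other alternative. All 66 were counted in every alternative, also where a gene would not pass the filter in fewer cells. A call that stayed can thus rest on few reads. Among cells without micronuclei, Ppm1d was read on the high side only in cell 12, at 25.1 CPM, and in no low cell. Cdc20 alone changed sign (-0.35, scran choice of cells). The calls lost are named with the results. The cause was not tested. No paired analysis was possible because cell numbers only follow accession order and no test was run.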
